A study of Homo sapiens with 6 samples.

Results

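The G1/S cyclins and their kinases are 9 genes: the D-type cyclins CCND1, CCND2 and CCND3, the E-type cyclins CCNE1 and CCNE2, cyclin A2 (CCNA2), and the kinases CDK2, CDK4 and CDK6. Their members here were the probe sets whose annotation names 1 of these genes and no other. There were 26 such probe sets of 49293, and each of the 9 genes had at least 2. They were measured in U87, an established human glioblastoma cell line, in 3 samples that overexpressed the microRNA miR-151a (miR-151a UP) and in 3 samples that overexpressed a negative control microRNA (miR-NC). The labels name no drug, no time and no arm of miR-151a, and all 6 samples carried a microRNA overexpression. The labels do not say whether replicates came from separate cultures, and the p-values cover the spread among these arrays alone, possibly a technical one.

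D-type cyclins bind CDK4 and CDK6 when mitogens are present, and these complexes begin the phosphorylation of the RB protein. RB then releases E2F factors, which raise transcription of the E-type cyclins, cyclin A2 and the genes of DNA synthesis. Cyclin E with CDK2 drives entry into S phase, and cyclin A2 with CDK2 carries DNA replication forward. In gliomas the loss of the inhibitor gene CDKN2A and the amplification of CDK4 are recurrent ways in which this pathway is altered.

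With miR-151a, CCNE2, CCNA2 and CDK2 were lower, and CCNE1, the D-type cyclins, CDK4 and CDK6 did not pass the test. At their brightest probe sets CCNE1 and CCND3 had log2 fold changes of -0.195 and -0.177, near the -0.219 of CDK2. CCNE2 and CCNA2 fell by 31.8% and 30.8% at their brightest probe sets, and CDK2 fell by 14.1%. Of the 26 probe sets, 7 fell and 0 rose past an adjusted p of 0.05 in limma. These 7 were both probe sets of CCNE2, both of CCNA2 and all 3 of CDK2, so they stand for 3 genes and not for 7 separate measurements. Of all probe sets, 7.27% fell by the same rule and 6.81% rose. The count of 7 became 4 without miR-151a UP replicate 2 or any 1 of the miR-NC samples, and in each of these fits 0 of the 3 CDK2 probe sets passed. The median log2 fold change over the 26 probe sets was 0.005, beside -0.009 over all probe sets. In RNA from whole cultures, fewer cells in S phase or G2 and less RNA per cell cannot be told apart. The variance trend with a robust fit added 1 rise, a CCND1 probe set at a log2 fold change of 0.10 (limma adjusted p = 0.048).

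The 6 arrays had close distributions, with lower quartiles of intensity from 15.0 to 15.6 in miR-151a UP samples and from 14.9 to 15.4 in miR-NC samples. Pearson correlations over probe sets were 0.9980 to 0.9984 within groups and 0.9956 to 0.9958 between them. For the control transcripts, where a 3 prime signal above the 5 prime signal can mark degraded RNA, the log2 ratio of these signals was 0.27 to 0.30 for beta-actin in miR-151a UP samples and 0.37 to 0.43 in miR-NC samples. For GAPDH it was 0.045 to 0.052 in miR-151a UP samples and 0.029 to 0.049 in miR-NC samples, and for 18S ribosomal RNA 0.35 to 0.41 in miR-151a UP samples and -0.54 to -0.46 in miR-NC samples. The part of these ratios in the changes below was not tested. Of 7 glioma line markers, summed intensities were 28787 to 30245 in miR-151a UP samples and 28897 to 30626 in miR-NC samples, and 0 lay below the lower quartile in all 6 samples. Of those 7, 1 passed at the brightest probe set, the intermediate filament gene NES, at a log2 fold change of -0.31 (limma adjusted p = 0.0079). TNC and CD44 lie outside the naming rule given below. TNC rose at 2 of its 4 probe sets, and CD44 fell at 1 of its 10. Averaged over probe sets, TNC was at 0.174 and CD44 at -0.065 (limma adjusted p = 0.016 and 0.29). Markers of immune, endothelial, epithelial and neuronal cells numbered 12, of which 0 passed in limma at their brightest probe sets. The endothelial PECAM1 and the neuronal SYT1 had unadjusted limma p of 0.026 and 0.036 there. SYT1 rose at 1 of its 3 probe sets. Averaged over these probe sets, SYT1 passed at a log2 fold change of 0.195 (limma adjusted p = 0.04). The immune markers PTPRC and CD14 and the epithelial marker CDH1 lay below the lower quartile in all 6 samples, and the others did not. The immune marker CD68 read 991 to 1080 in miR-151a UP samples and 969 to 1022 in miR-NC samples. The neuronal marker SNAP25 read 333 to 350 in miR-151a UP samples and 327 to 342 in miR-NC samples. Both lay above the upper quartile of every array.

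**Figure D1:**
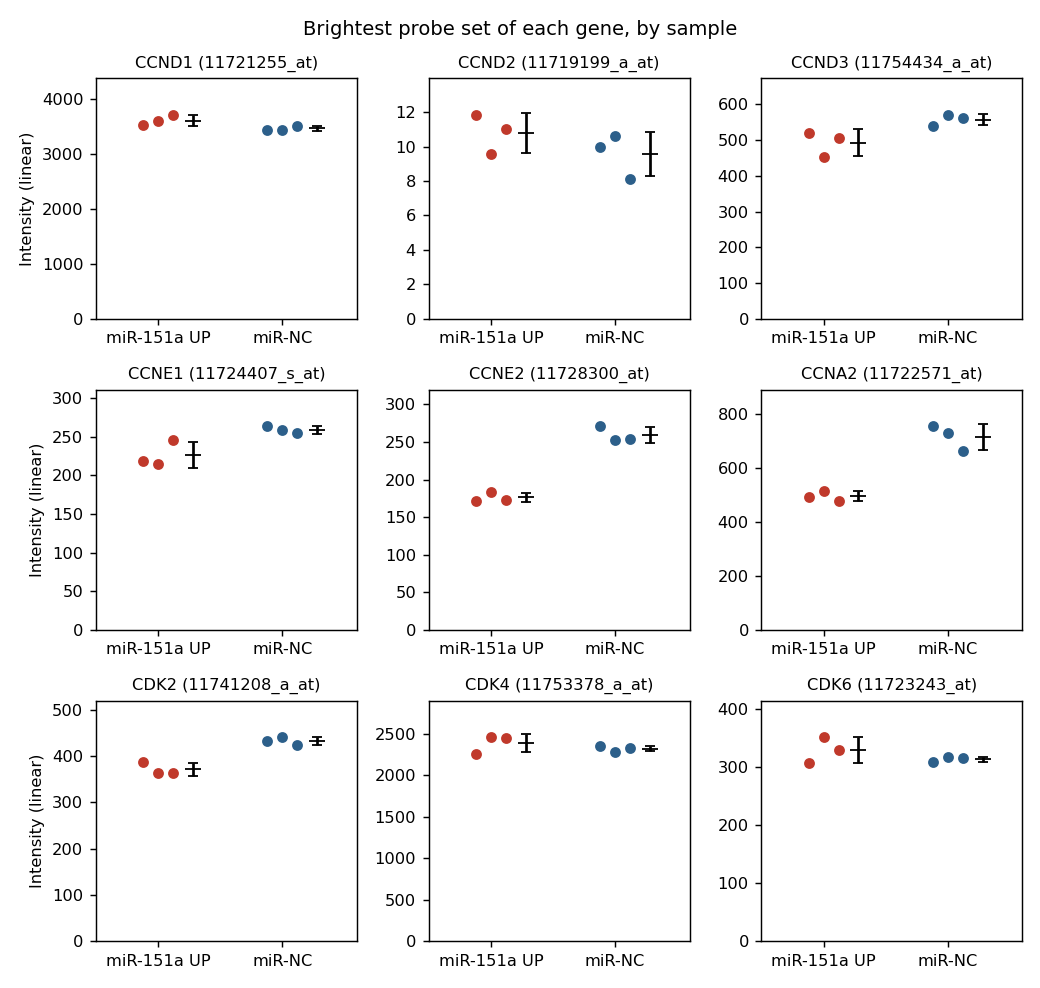
Intensity on a linear scale in each sample, for the brightest probe set of each of the 9 genes; red points are miR-151a UP samples, blue points miR-NC samples, and the black marks the mean and SD of 3 samples. The groups are wide apart for CCNE2 and CCNA2, closer for CDK2, and overlap for CCND2, CDK4 and CDK6.

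Cyclin E2 and cyclin A2 had the largest falls among the 9 genes. At its brighter probe set (11728300_at), CCNE2 had intensities of 172, 183 and 173 in miR-151a UP samples, against 271, 252 and 254 in miR-NC samples. Every miR-151a UP value lay below every miR-NC value, and the groups were separated by more than their own range. Its log2 fold change was -0.55 (standard error 0.05, 95% interval -0.68 to -0.43), at a limma adjusted p of 0.00073. The dimmer probe set of CCNE2 (11728301_a_at) read 88.0, 90.7 and 101 in miR-151a UP samples, against 116, 130 and 118 in miR-NC samples. These groups did not overlap either, and the log2 fold change of -0.38 (95% interval -0.54 to -0.22, limma adjusted p = 0.010) was smaller than at the brighter probe set, with intervals that overlap. All fold changes refer to log2(intensity + 1). This understates those of probe sets with readings as low as those of CCND2, and matters little at both CCNE2 probe sets.

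CCNA2 behaved alike at both of its probe sets. The brighter (11722571_at) gave 492, 513 and 476 in miR-151a UP samples, against 754, 728 and 661 in miR-NC samples. The dimmer (11722572_at) gave 447, 477 and 463 in miR-151a UP samples, against 650.3, 669.7 and 657 in miR-NC samples. In both, the highest miR-151a UP sample was well below the lowest miR-NC sample. The log2 fold changes were -0.53 (standard error 0.06, limma adjusted p = 0.0018) and -0.51 (standard error 0.05, limma adjusted p = 0.00068). CCNA2 and CCNE2 passed at every probe set in all 13 alternatives run at the probe set level, among them the 6 fits without 1 sample, with adjusted p up to 0.011 for CCNA2 and up to 0.040 for CCNE2.

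The promoter of CCNA2 is shown because this gene fell at both probe sets and its promoter is a textbook case of cell cycle control, through a cell cycle homology region (CHR), a cyclic AMP response element (CRE) and CCAAT boxes. The 100 bases before the RefSeq start are given 5′ to 3′ on the minus strand of GRCh38.p14, chr4:121823884-121823983, with motif matches in capitals:
CCNA2: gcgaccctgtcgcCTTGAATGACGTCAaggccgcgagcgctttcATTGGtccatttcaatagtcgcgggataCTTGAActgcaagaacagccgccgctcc
The letters searched on both strands were TTTGAA and CTTGAA for the CHR, TGACGTCA for the CRE, CCAAT for the CCAAT box, TTTNNCGC for E2F and CACGTG for the E-box, a site of MYC and related factors. In this stretch CTTGAA stands at -87 to -82 and again at -28 to -23, counted from the start, with the CRE between them at -81 to -74, directly after the first, and a CCAAT box, read on the other strand, at -56 to -52. Of 35116 promoter windows of the same length (250 bases before to 50 after a start), 23.9% hold a CHR match, 1.85% a CRE match, 34.6% a CCAAT match, 6.89% an E2F match and 7.26% an E-box match. The E2F and E-box letters were not found in the CCNA2 window. Matches are letters in a window and do not show that a factor binds. Windows of CCNA2, CCND3, CCNE1, CDK4 and CDK6 were searched, and those of CCND1, CCND2, CCNE2 and CDK2 were not used here.

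Cyclin E1, the paralogue of CCNE2, did not pass. Its brighter probe set (11724407_s_at) had intensities of 219, 215 and 245 in miR-151a UP samples, against 264, 258 and 254 in miR-NC samples. The groups did not overlap, yet miR-151a UP replicate 3 came close to the lowest miR-NC sample. Its log2 fold change was -0.19 with a 95% interval from -0.34 to -0.05 (limma adjusted p = 0.077), and it passed without miR-151a UP replicate 3 (limma adjusted p = 0.035, in a range from 0.012 to 0.19 over the alternatives). The dimmer probe set (11724406_a_at) read 26.3 to 30.3 in miR-151a UP samples and 28.5 to 31.9 in miR-NC samples, which overlap, at a log2 fold change of -0.12 (limma adjusted p = 0.31). No match to the searched letters was found in the CCNE1 window.

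The D-type cyclins, which couple mitogen signals to the cell cycle, had no probe set past the threshold. CCND1 was measured by 4 probe sets. The brightest (11721255_at) gave 3520.3, 3592 and 3708 in miR-151a UP samples, against 3442, 3440.3 and 3513 in miR-NC samples. All miR-151a UP values were above all miR-NC values, but by a small margin. The log2 fold change was 0.06 (95% interval -0.05 to 0.17, limma adjusted p = 0.49). The other CCND1 probe sets had log2 fold changes of 0.04 to 0.10 with adjusted p from 0.28 to 0.63, and the widest of the 4 intervals ran from -0.03 to 0.22. A fall of CCND1 as large as that of CCNE2 or CCNA2 thus lies outside all 4 intervals.

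CCND2 gave low readings in every sample. Its brightest probe set (11719199_a_at) had intensities of 11.8, 9.57 and 11.0 in miR-151a UP samples, against 9.99, 10.6 and 8.12 in miR-NC samples. The groups overlapped at all 3 probe sets, and all of these readings lay below the lower quartile of their array. The log2 fold changes were 0.16, 0.05 and -0.10 (limma adjusted p = 0.37, 0.71 and 0.62), and the 3 did not share a direction. No detection calls were used, so CCND2 is not said to be absent. A change of this cyclin was not detectable at these readings.

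For CCND3, 2 probe sets disagreed. The bright one (11754434_a_at) had intensities of 521, 452 and 507 in miR-151a UP samples, against 539.7, 570.2 and 561 in miR-NC samples. The groups did not overlap, and miR-151a UP replicate 2 was the lowest. Its log2 fold change was -0.18 (95% interval -0.33 to -0.03, limma adjusted p = 0.12), which became -0.12 without miR-151a UP replicate 2 (limma adjusted p = 0.25, in a range from 0.011 to 0.26 over the alternatives). The other probe set (11762304_a_at) read 7.07 to 7.78 in miR-151a UP samples and 5.95 to 7.66 in miR-NC samples, below the lower quartile throughout, at a log2 fold change of 0.13 (limma adjusted p = 0.36).

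**Figure D2:**
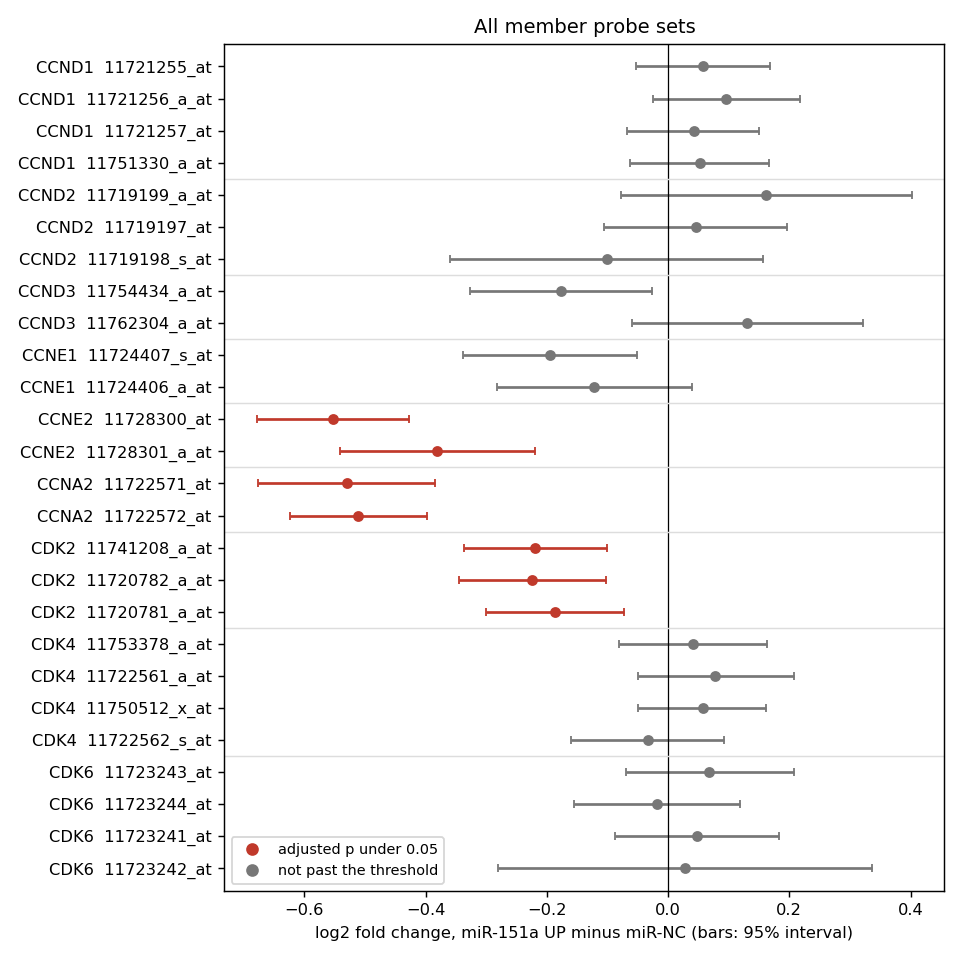
Log2 fold change, miR-151a UP minus miR-NC, of all 26 probe sets with the 95% interval of the limma fit; red marks an adjusted p under 0.05 and grey the rest. The 7 red points belong to CCNE2, CCNA2 and CDK2, and the intervals of CCND1, CDK4 and CDK6 all include 0.

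Of the kinases, CDK2, the partner of cyclins E and A, was the 1 gene that passed. Its brightest probe set (11741208_a_at) had intensities of 388, 363 and 364 in miR-151a UP samples, against 434, 441 and 424 in miR-NC samples. The log2 fold change was -0.22 with a 95% interval from -0.34 to -0.10 (limma adjusted p = 0.027). Another probe set (11720782_a_at) gave 313, 327 and 333 in miR-151a UP samples, against 394, 369 and 375 in miR-NC samples. The dimmest (11720781_a_at) gave 317, 301 and 297 in miR-151a UP samples, against 348, 351 and 342 in miR-NC samples. Groups did not overlap at any of the 3, and the log2 fold changes of these last probe sets were -0.22 and -0.19 (limma adjusted p = 0.027 and 0.043). Although the probe sets matched closely in size, these calls lay near the threshold. Without 1 sample the estimates ran from -0.25 to -0.17 over the 3 probe sets, and the adjusted p from 0.032 to 0.13. The brightest and the dimmest passed without miR-151a UP replicate 1. Without any of the other samples 0 of the 3 passed, at limma adjusted p from 0.053 to 0.13, and each estimate stayed below 0.

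CDK4, a kinase partner of the D-type cyclins, did not pass at any of 4 probe sets. The brightest (11753378_a_at) had intensities of 2262, 2459 and 2448 in miR-151a UP samples, against 2349.7, 2287 and 2326 in miR-NC samples. The groups overlapped, and the miR-151a UP samples held both the lowest and the highest value. Its log2 fold change was 0.04 (95% interval -0.08 to 0.16, limma adjusted p = 0.68). The other three probe sets had log2 fold changes of -0.03 to 0.08, with adjusted p from 0.42 to 0.75. One of them (11750512_x_at) gave 2133, 2192 and 2140.3 in miR-151a UP samples, against 2054, 2078 and 2085 in miR-NC samples, without overlap. Over all 4 the intervals reached from -0.16 to 0.21.

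The CDK4 promoter is shown as that of a gene that did not pass, with E-box matches in its window. Both promoters were picked after the results were seen. Of the falling genes only CCNA2 had its window searched, and a link between motifs and changes was not tested. The 250 bases before its RefSeq start are given 5′ to 3′ on the minus strand of GRCh38.p14, chr12:57752311-57752560, with the E-box letters in capitals:
CDK4: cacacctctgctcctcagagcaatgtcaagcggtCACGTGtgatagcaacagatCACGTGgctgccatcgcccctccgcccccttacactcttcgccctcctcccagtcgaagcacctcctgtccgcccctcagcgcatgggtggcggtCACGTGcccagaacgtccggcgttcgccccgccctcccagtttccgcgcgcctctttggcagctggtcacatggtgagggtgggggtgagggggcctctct
CACGTG stands at -216 to -211, -196 to -191 and -101 to -96, which makes 3 E-box matches, while the CHR, CRE, CCAAT and E2F letters were not found in the window. The windows of CDK6 held 1 E-box match over its 2 starts, and those of CCND3 held 2 CCAAT matches over its 3 starts.

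CDK6, the other partner of the D-type cyclins, was also measured by 4 probe sets. The brightest (11723243_at) had intensities of 307, 351 and 329.8 in miR-151a UP samples, against 309, 317 and 315 in miR-NC samples. These overlapped, with the wider spread among the miR-151a UP samples. The log2 fold change was 0.07 (95% interval -0.07 to 0.21, limma adjusted p = 0.52). For the next probe sets the log2 fold changes were -0.02 and 0.05 (limma adjusted p = 0.88 and 0.66). The dimmest (11723242_at) read 34.2 to 37.7 in miR-151a UP samples and 27.6 to 42.1 in miR-NC samples. On the log2 scale it had the largest standard error of the CDK6 probe sets (0.13). Its interval from -0.28 to 0.34 says little about a change of the size seen for CDK2.

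Among the 26 probe sets, all miR-151a UP values lay below all miR-NC values for 9 and above them for 3, and the groups overlapped for the other 14. Of all probe sets, 18.6% were separated downward and 15.3% upward, 33.8% in all. The 9 were the 7 that passed with the bright probe sets of CCNE1 and CCND3. The 3 were CCND1 probe sets 11721255_at and 11721256_a_at and the CDK4 probe set 11750512_x_at, and none of these 3 passed in limma (unadjusted p = 0.26, 0.10 and 0.25).

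Whether paralogues changed unequally was tested within each sample, as the log2 value of the first gene minus that of the second at their brightest probe sets, over 7 pairs. With 3 samples against 3, the exact two-sided permutation test cannot go below p = 0.1, so no pair could pass. Relative to CCNE2, CCNE1 was higher by 0.36 on the log2 scale in miR-151a UP samples than in miR-NC samples, with sample values of 0.35, 0.23 and 0.50 in miR-151a UP samples, against -0.04, 0.04 and 0.001 in miR-NC samples, set to a miR-NC mean of 0. The groups did not overlap (exact permutation p = 0.1, adjusted p = 0.14 over the 7 pairs). CDK2 was lower relative to CDK4 by a difference of -0.26 and relative to CDK6 by a difference of -0.29, again without overlap in 3 against 3 samples (exact permutation p = 0.1 for each, adjusted p = 0.14). For CDK4 relative to CDK6 the groups overlapped, and the difference was -0.03 (SD 0.05 in miR-151a UP samples and 0.04 in miR-NC samples, exact permutation p = 0.5, adjusted p = 0.58).

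Among the D-type cyclins, CCND1 relative to CCND3 differed by 0.24, without overlap (exact permutation p = 0.1, adjusted p = 0.14). Averaged over each gene's probe sets, this became 0.08 (exact permutation p = 0.2). That average takes in the CCND3 probe set below the lower quartile. The pairs with CCND2 were counted among the 7, but their differences are not read here, since all CCND2 readings lay below the lower quartile of their array.

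**Figure D3:**
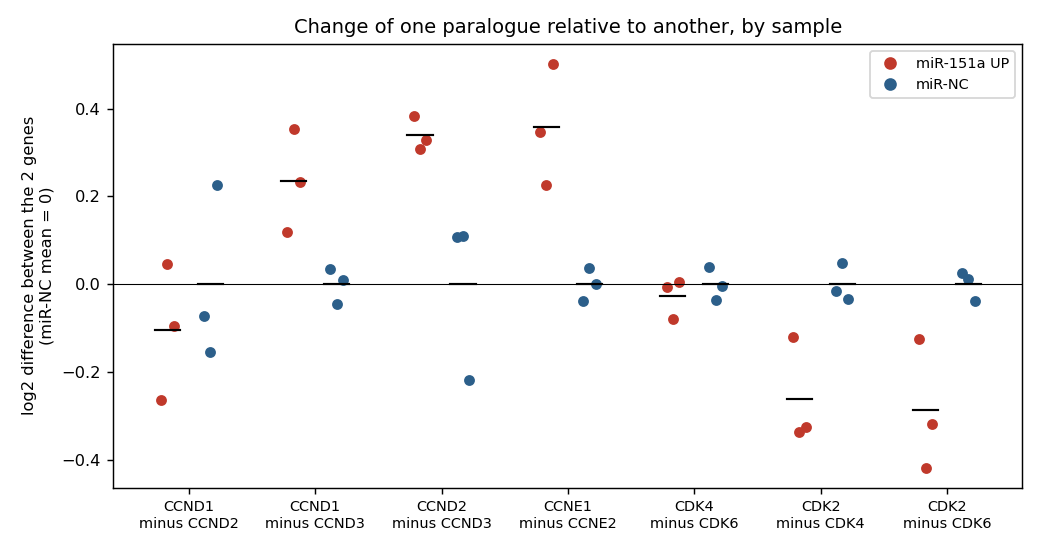
Log2 value of the first gene minus that of the second in each sample, at their brightest probe sets and with the miR-NC mean of each pair set to 0; red points are miR-151a UP samples, blue points miR-NC samples, and black lines group means. Groups are apart for CCNE1 minus CCNE2 (0.36), CDK2 minus CDK4 (-0.26) and CDK2 minus CDK6 (-0.29), and overlap for CDK4 minus CDK6; the pairs with CCND2 rest on readings below the lower quartile of each array.

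The genes around these members were counted with 1 probe set per gene, the brightest. At that level 3 of the 9 members fell and 0 rose, with the remaining 6 not passing. The median log2 fold change of the 9 was -0.18, beside -0.009 over 18132 genes. That median is the value of CCND3 at its bright probe set. Averaged over its 2 probe sets, CCND3 was at -0.023. Of all genes, 8.11% fell and 7.27% rose. CDK2 had an adjusted p of 0.021 in this limma fit, and did not pass without any 1 sample other than miR-151a UP replicate 1 (adjusted p from 0.051 to 0.079).

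Of 19 measured genes of S phase, many of them E2F targets, 14 fell, 0 rose and 5 did not pass in limma. Their median log2 fold change was -0.24. Over all genes, 8.11% fell and 7.27% rose. All 19 log2 fold changes lay between -0.40 and -0.07. DBF4, the activating subunit of the kinase that fires origins, had intensities of 301, 299 and 277 in miR-151a UP samples, against 399.9, 377 and 379 in miR-NC samples. RRM2, a subunit of ribonucleotide reductase, averaged 2014 ± 15.2 in miR-151a UP samples and 2568 ± 41.0 in miR-NC samples (SD, n = 3 each), without overlap. Its partner RRM1 was at a log2 fold change of -0.33, the sliding clamp PCNA at -0.34, the DNA polymerase alpha subunit POLA1 at -0.35 and the origin recognition subunit ORC1 at -0.33. The count of 14 became 9 without miR-151a UP replicate 1 and 9 to 12 without any 1 sample. PCNA was at -0.24 when averaged over its 2 probe sets.

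Of 13 genes of the RB and E2F families, 4 fell and 1 rose, and the median was -0.17 on the log2 scale. Over all genes 8.11% fell and 7.27% rose, so 1 rise is not read as a movement of the families. The falls were those of the activator genes E2F1 at -0.30 and E2F2 at -0.30, the repressor gene E2F8 at -0.47 and the dimerization partner gene TFDP1 at -0.31. E2F1 averaged 209 ± 3.99 in miR-151a UP samples and 258 ± 7.48 in miR-NC samples (SD, n = 3 each). For E2F2 the probe sets disagreed: 1 of 2 passed and the other was at -0.02. The 4 falls of the list became 6 with the mean over probe sets and 3 to 5 without 1 sample. E2F6, a repressor of the family, rose, with intensities of 154, 158 and 152 in miR-151a UP samples, against 132, 118 and 129 in miR-NC samples, a log2 fold change of 0.29 (limma adjusted p = 0.011).

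Of 7 measured inhibitors of the cyclin-dependent kinases, 1 rose and 2 fell, around a median of 0.06. These counts stand beside 7.27% of all genes that rose and 8.11% that fell, and are too small to describe the list. CDKN1A, which encodes the CDK inhibitor p21, had intensities of 2273, 2291 and 2330.2 in miR-151a UP samples, against 1797, 1811 and 1832 in miR-NC samples. The groups lay far apart relative to their spread, and the log2 fold change was 0.34 (95% interval 0.25 to 0.44, limma adjusted p = 0.0018). CDKN2D, an inhibitor of CDK4 and CDK6, fell, with 152, 166 and 167 in miR-151a UP samples, against 228, 231 and 233 in miR-NC samples (log2 fold change -0.52, limma adjusted p = 0.00085). CDKN3, a phosphatase that acts on CDK2, was at -0.25, and 6 of its 8 probe sets fell. CDKN2A, which U87 cells are known to have lost, was outside the naming rule and was chosen after its values were seen: it read 17.9 to 24.0 in miR-151a UP samples and 18.6 to 22.4 in miR-NC samples, and did not pass.

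Regulators of these kinases numbered 16, of which 5 fell and 2 rose, around a median of -0.09, beside 8.11% and 7.27% of all genes. SKP2, the ubiquitin ligase subunit that targets the inhibitor p27, had intensities of 42.8, 46.2 and 44.2 in miR-151a UP samples, against 62.9, 68.4 and 63.9 in miR-NC samples. That is a log2 fold change of -0.54 (limma adjusted p = 0.00075), and with a pseudocount of 32 it was -0.34, beside -0.48 for CCNE2 and -0.50 for CCNA2. CDC25A, the phosphatase that activates CDK2, was at -0.39, WEE1, the kinase that inhibits CDK1 and CDK2, at -0.38, and the CDK-binding subunit CKS2 at -0.30. AMBRA1, which promotes the degradation of D-type cyclins, rose by a log2 fold change of 0.30 (limma adjusted p = 0.0073). CDK7, the kinase that activates other cyclin-dependent kinases, rose by 0.23 (limma adjusted p = 0.020). Only 1 of these regulators rose in each of the fits without miR-151a UP replicate 2 or 3 or any miR-NC sample, and CDK7 had adjusted p up to 0.074 over the alternatives.

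Other cyclins and cyclin-dependent kinases moved in both directions. Of 28 measured, 7 fell and 6 rose, around a median of -0.04, beside 8.11% and 7.27% of all genes. The mitotic cyclins CCNB1 and CCNB2 were at -0.34 and -0.43, CDK1, their kinase, at -0.30, and CCNF, a cyclin that serves as a ubiquitin ligase subunit, at -0.52. CCNB2 had intensities of 595, 687 and 648 in miR-151a UP samples, against 883, 858 and 853 in miR-NC samples. By contrast CCNL1, a cyclin linked to splicing, rose at its brightest probe set, with 531, 560.2 and 563 in miR-151a UP samples, against 354, 366 and 341 in miR-NC samples. That rise of 0.64 on the log2 scale became 0.30 when averaged over 4 probe sets, of which 3 rose and 1 fell. CDK20 rose by 0.50, and by 0.34 when averaged over its 5 probe sets. CCNF was at -0.38 when averaged over its 2 probe sets. Of the 6 rises, 3 were counted without miR-151a UP replicate 3 or miR-NC replicate 2.

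**Figure D4:**
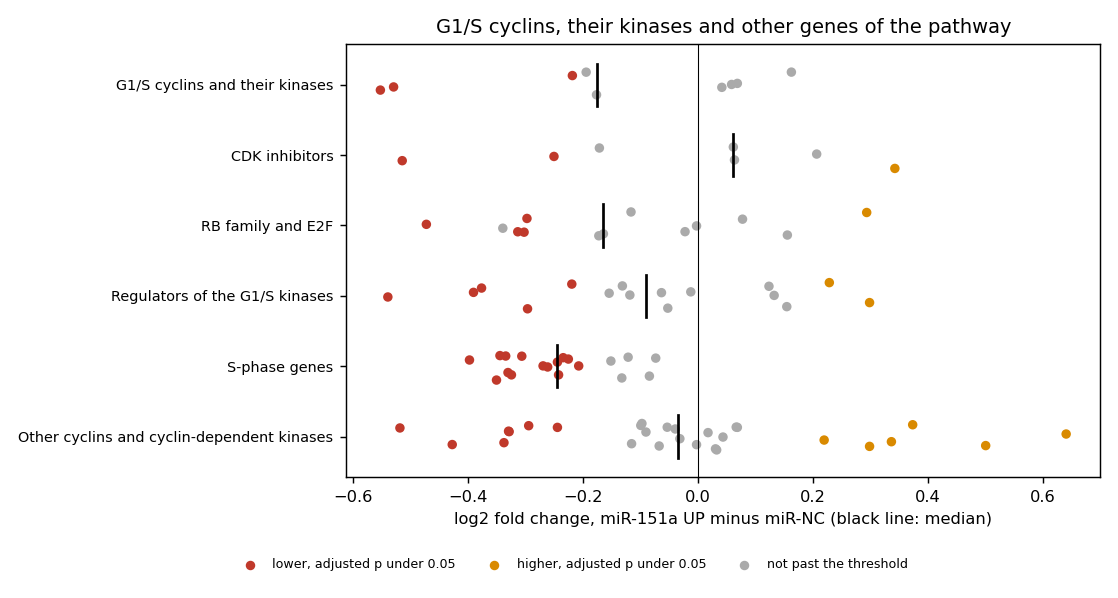
Log2 fold change, miR-151a UP minus miR-NC, of each gene of the 9 members and of 5 lists of related genes, at the brightest probe set; red points fell and orange points rose past the threshold, grey points did not pass, and black lines are medians. The S-phase genes all lie below 0, from -0.40 to -0.07, while the other lists hold points on both sides.

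The genes whose sample profiles lay nearest to those of the 3 falling members were found by Euclidean distance of log2 values, each minus its miR-NC mean, over the 6 samples. Nearest to CCNE2 were FOXM1, a transcription factor of the G2/M genes, at a distance of 0.079, HMGB3, a chromatin protein gene, at 0.087, and NUF2, a kinetochore gene, at 0.088. Nearest to CCNA2 were LMO7 at 0.065, the mitotic kinase gene NEK2 at 0.092 and again NUF2 at 0.105. For CDK2 they were SNRNP48, a splicing gene, at 0.046, PTBP3, an RNA-binding protein gene, at 0.050, and HPRT1, a purine salvage gene, at 0.058. Each of these 8 genes passed in limma, with log2 fold changes of -0.58 to -0.49 for those nearest to CCNE2 and CCNA2 and of -0.24 to -0.21 for those nearest to CDK2. Since the measure follows the difference between the groups, it selects genes with a fall of like size.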

How the data were processed

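The deposited values are probe set intensities on a linear scale, all above 0, in 1 column for each of 6 samples. MAS5 is named in the submitters' processing notes, without its role, and how the authors corrected, summarized and scaled the signals is not stated there. The deposited columns had similar quartiles. If the arrays were scaled to a common level, a shift common to most transcripts is hidden. Control probe sets (102) were set aside. Of 49293 others, 44988 named 1 gene in the platform annotation (44961 matched RefSeq of GRCh38.p14 by Entrez identifier, which gave the current symbol), 1832 named several genes and 2473 none; 0 of the 1832 named a member. Probe set names ending in _s_at or _x_at mark probes that can match more than 1 transcript or sequence.

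The groups were compared on log2(intensity + 1) by limma 3.58.1 under R 4.3.3 (lmFit, eBayes, no covariate), over all probe sets or over 18132 genes by the probe set with the highest mean, with Benjamini-Hochberg adjustment and a threshold of 0.05. The limma step was tested on simulated data. Paralogue pairs were tested with scipy 1.17.1. Precision is limited by the number of arrays. The members and lists were chosen with earlier results of these data known. The text names all members, up to 6 passing genes of each list by smallest p (2 where none passed), and the 3 nearest genes of the 3 members with the smallest p. CDKN2C and CDK3 were not analysed here, and 1 listed S-phase gene is not reported here. Same-numbered samples of the groups did not deviate together (correlations of -0.08, -0.12 and 0.07), so the numbers were not taken as pairs. Other settings tried were median centring, quantile normalization, leaving out each sample, array weights, a pseudocount of 32, a robust fit with a variance trend, a block on the replicate number, dropping the dimmest 0.25 of probe sets, and averaging the probe sets of each gene. Promoter sequences came from RefSeq. Figures were drawn with matplotlib 3.10.9.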

Additional observations from a re-analysis of the deposited data

How the results depend on the processing

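CCNE2 and CCNA2 kept their direction and their call in every alternative run, at every probe set. Over all probe sets, 3585 fell and 3355 rose; 5396 fell with a pseudocount of 32, 5856 with a variance trend and robust fit, and 1893 to 2426 without 1 sample, where 2171 to 2689 rose. With the replicate number as a block, 2052 fell, 4 of the 26 member probe sets fell in place of 7, and the adjusted limma p of the 3 CDK2 probe sets was 0.068, 0.080 and 0.093; the samples share only a number (of the 3 miR-151a UP samples, 1 deviated most like its own number), so this is no measure of a weaker effect. Without 1 sample, 4 to 6 member probe sets fell: 4 without miR-151a UP replicate 2 or any miR-NC sample. With quantile normalization the dimmest CDK2 probe set had an adjusted p of 0.063. A variance trend with a robust fit called 1 member probe set as higher and 5 member genes as lower, and a pseudocount of 32 also called 5 genes, where CCNE1 and CCND3 were added to the 3. The replicate block and the fits without miR-151a UP replicate 2 or any 1 miR-NC sample called 2 member genes as lower, with CDK2 at an adjusted p of 0.061 under the block. For the lists, the RB and E2F rises numbered 2 with a pseudocount of 32. Rises of kinase regulators numbered 4 with a pseudocount of 32, 5 with the variance trend, 1 with the replicate block and 1 to 2 without 1 sample. S-phase falls numbered 9 to 12 and rises of other cyclins and kinases 3 to 5 without 1 sample. With the mean over probe sets, CCND1 minus CCND3 was 0.085 and CCND2 minus CCND3 0.058, and the 2 pairs with CCND2 rest on readings below the lower quartile. The mean of CCND3 takes in its dim probe set, at a log2 fold change of 0.13, beside -0.18 at the bright one. The cause of the other shifts was not tested. CCND2 and the dim CCND3 probe set have no value once probe sets below the 0.25 quantile are removed. With 3 samples a group, changes near 0.2 on the log2 scale lie at the limit of what this fit calls.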
